A study of Bos taurus with 8 samples.

Results

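The windows of HIC1 and of 8 other genes known for CpG-island methylation in tumours (CDKN2A, CDKN2B, RASSF1, RARB, RUNX3, WT1, APC and RB1) were examined in MIRA-Seq libraries of bovine dermal fibroblasts. All windows whose deposited gene name began with one of the 9 symbols were taken, which gave 127 of the 902984 windows of the genome, or 9 of 26107 named genes. The 2 windows on each side of every gene were added, 36 in all, of which 35 were distinct because one lies between CDKN2A and CDKN2B. A single window inside RB1 carries the name of LPAR6 and was left out of the RB1 values. HIC1 was picked because its windows had separated the breeds in these same libraries, so its breed values are given as a description with no test. The other 8 genes were picked by name.

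The libraries came from 4 Holstein and 4 Angus heifers of about the same age, 1 culture and 1 library per animal, at passage 5. Skin was taken from the shoulder, the fibroblasts were released with collagenase, and all 8 cultures were grown without any treatment, so no culture had been exposed to LPS. Holstein is a dairy breed and Angus a beef breed, and calves of the breeds are reared differently, so breed and rearing cannot be told apart. Cultures are named below by breed and animal number.

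HIC1 (hypermethylated in cancer 1) is a zinc-finger repressor of genes such as SIRT1. CDKN2A and CDKN2B encode inhibitors of the cyclin D kinases, and RB1 encodes the protein that those kinases phosphorylate. In most normal cells the CpG islands at the start of such genes carry little methylation, while in many tumours they become methylated and the gene falls silent. Gene bodies are often methylated in normal cells as well. In MIRA-Seq, sheared DNA is bound by the MBD2b/MBD3L1 protein complex, which holds DNA with methylated CpG, and what it holds is sequenced. A window with more methylated CpG therefore gives more reads, but so does one with more CpG sites, so levels of different windows are not levels of methylation per site. The share of cells that carry a methylated copy and the methylation per copy cannot be told apart in such cultures.

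The authors counted reads in consecutive 3Kb windows of the bovine genome build UMD v3.1. Window totals ran from 18691111 to 35525554 reads per library, and levels are given below as CPM, the reads of a window scaled to that total. A count of 3 reads, below which a window was held not to differ from 0, equalled 0.0844 to 0.161 CPM, a limit that covers counting error only. Reads were most concentrated in Holstein 1 and Angus 3, where the top 1% of windows held 69.0% and 72.4% of the reads, against 46.8 to 57.4% in the other 6 libraries. The fits below therefore used TMM scaling, which gave these 2 libraries factors of 0.817 and 0.677, while the CPM values printed here carry no such scaling. No expression data were used here, so the fibroblast identity of the cultures was not checked against transcripts.

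HIC1 lies on chromosome 19 and is covered by 2 windows (positions 23655275 to 23661274), the first holding coding exon 1 and the next coding exon 2. In window 1 the Holstein cultures 1 to 4 gave 0.405, 0.519, 1.89 and 0.788 CPM, from 8, 12, 50 and 28 reads. The Angus cultures 1 to 4 gave 2.34, 2.16, 1.91 and 5.24 CPM in the same window, from 67, 62, 57 and 98 reads. The breeds did not overlap, but Holstein 3 reached almost the level of Angus 3, and the other Holstein cultures lay well below. With TMM scaling Holstein 3 was at 1.74 CPM and the lowest Angus culture, Angus 2, at 1.97 CPM. In window 2 the Holstein cultures gave 0.708, 1.43, 3.14 and 1.66 CPM, and the Angus cultures 3.77, 3.58, 3.22 and 6.05 CPM. The breeds again did not overlap, with Holstein 3 highest in its breed and Angus 4 highest of all.

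On the log2 scale of TMM-scaled CPM, the Holstein mean of window 1 lay 1.85 below the Angus mean, a 3.61-fold higher level in Angus, with a pooled SD within breeds of 0.67. In window 2 the level in Angus was 2.82-fold higher, with a pooled SD of 0.53. No test is given for HIC1. Over the whole genome, edgeR's likelihood-ratio test called 267 of 115360 windows tested, or 0.231%, at the study's thresholds of an FDR below 0.1 and a fold change of at least 2. The share called higher in Angus was 0.192% and that higher in Holstein 0.039%. Without TMM scaling, all Angus cultures lay above all Holstein ones in 0.208% of windows tested and 0.243% of windows with at least 1 read. With TMM scaling these shares were 1.25% and 0.808%. Since HIC1 was chosen on this contrast, nothing is read from those shares. Window 1 passed the filter of 1 CPM in at least 4 libraries through the 4 Angus cultures and Holstein 3.

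**Figure D1:**
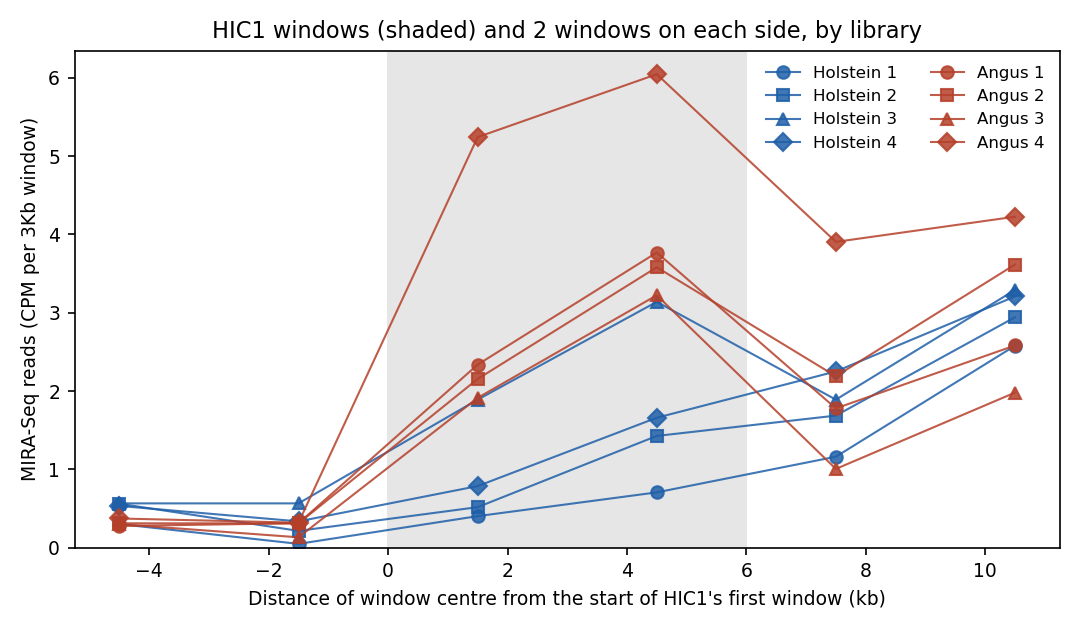
MIRA-Seq reads (CPM per 3Kb window, y axis) in the 2 windows of HIC1 (shaded) and the 2 windows on each side, plotted against the distance in kb from the start of HIC1 to the window centre, with 1 line per library, blue for Holstein and red for Angus. In the shaded windows all Angus libraries lie above the Holstein ones, with Holstein 3 (blue triangles) next to the lowest Angus library and Angus 4 (red diamonds) far above, while on both sides the breeds overlap.

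In all 4 neighbouring windows the breeds overlapped. Upstream, the nearest window gave 0.0506 to 0.568 CPM over the 8 libraries and the next, named for the microRNA gene MIR132, gave 0.279 to 0.568 CPM. Downstream lies SMG6, which acts in nonsense-mediated decay. Its nearer window, with coding exon 18, gave 1.16 to 2.25 CPM in Holstein and 1.01 to 3.91 CPM in Angus, so the breeds overlapped. Its farther window, with coding exon 17, gave 2.58 to 3.29 CPM in Holstein and 1.98 to 4.23 CPM in Angus. Angus 4 was the highest library in both SMG6 windows, as it was in HIC1.

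The SMG6 window gives a measure of HIC1 within each library. The reads of HIC1 window 1 were 0.157, 0.176, 0.575 and 0.246 times those of the farther SMG6 window in Holstein 1 to 4. The same ratio was 0.905, 0.596, 0.966 and 1.24 in Angus 1 to 4. For window 2 the ratios ran from 0.275 to 0.954 in Holstein and from 0.990 to 1.63 in Angus. The breeds did not overlap in either ratio, and Holstein 3 with Angus 2 formed the closest pair in both. The ratios hold the HIC1 reads on which HIC1 was chosen, so they repeat that choice and are no separate support. The deepest position of window 1 was covered 3, 3, 13 and 6 times in Holstein 1 to 4, and 16, 16, 16 and 21 times in Angus 1 to 4. The mean depth over the window was 0.27 to 1.63 in Holstein and 1.84 to 3.16 in Angus.

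Within breeds HIC1 also varied more than the other members. The pooled SD within breeds of its mean level per window, as log2(CPM + 0.5), was 0.55, above that of 99.6% of the 22150 genes with a mean of at least 0.2 CPM, whose median was 0.22. Genes with few reads vary less on this scale, which carries no TMM scaling. The HIC1 mean also covers only 2 windows, against 33 in APC and 40 in RB1, but CDKN2B, with 2 windows as well, was at 0.16. The other 8 genes lay between 0.14 (RB1) and 0.31 (RARB).

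The 3 first windows of other genes whose levels were most like those of HIC1 window 1 over the 8 libraries were in LHX2, CNTNAP1 and GP5, out of 5382 first windows with a mean of at least 1 CPM. These correlations are a description, and the points share the depth and read concentration of their libraries. LHX2, a LIM homeobox transcription factor, had a Pearson correlation of 0.976 on log2(CPM + 0.5). Its window on chromosome 11 (95126785 to 95129784) gave 1.01, 1.34, 2.46 and 1.13 CPM in Holstein 1 to 4, and 2.48, 2.89, 2.72 and 5.08 CPM in Angus 1 to 4. Holstein 3 came closest to the Angus cultures and Angus 4 stood highest, a likeness to HIC1 that follows from the choice by correlation. CNTNAP1, an axonal adhesion protein on chromosome 19, had a correlation of 0.935 and averaged 1.08 ± 0.257 CPM in Holstein and 2.26 ± 0.754 CPM in Angus (SD, n = 4 each). GP5, a platelet glycoprotein on chromosome 1, had a correlation of 0.930 and averaged 1.43 ± 0.337 CPM in Holstein and 2.78 ± 1.21 CPM in Angus. Its breeds overlapped in CPM without TMM scaling, as Angus 3 (1.71 CPM) lay below Holstein 3 (1.85 CPM).

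Over the 9 genes, mean levels per window spanned more than an order of magnitude. RARB, a retinoic acid receptor, stood highest at 3.31 ± 0.765 CPM (SD, n = 8 libraries), above 94.9% of named genes. HIC1 followed at 2.43 ± 1.60 CPM and the Runt transcription factor RUNX3 at 2.16 ± 0.433 CPM. RASSF1, a Ras-association protein, reached 1.33 ± 0.244 CPM. CDKN2B stood at 0.757 ± 0.127 CPM and WT1, a zinc-finger factor of kidney and gonad development, at 0.557 ± 0.142 CPM, around the median gene of 0.521 CPM. APC, which marks β-catenin for degradation, gave 0.297 ± 0.0906 CPM, and CDKN2A gave 0.290 ± 0.0932 CPM. RB1 was lowest at 0.193 ± 0.0612 CPM, above 14.6% of named genes. Each gene overlapped the next in its range over libraries, but within libraries some neighbours kept one order. RUNX3 lay above RASSF1, RASSF1 above CDKN2B, WT1 above APC and CDKN2A above RB1 in 8 of 8 libraries, and CDKN2B above WT1 in 7 of 8. RARB lay above HIC1 and HIC1 above RUNX3 in 5 of 8, and APC above CDKN2A in 4 of 8.

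**Figure D2:**
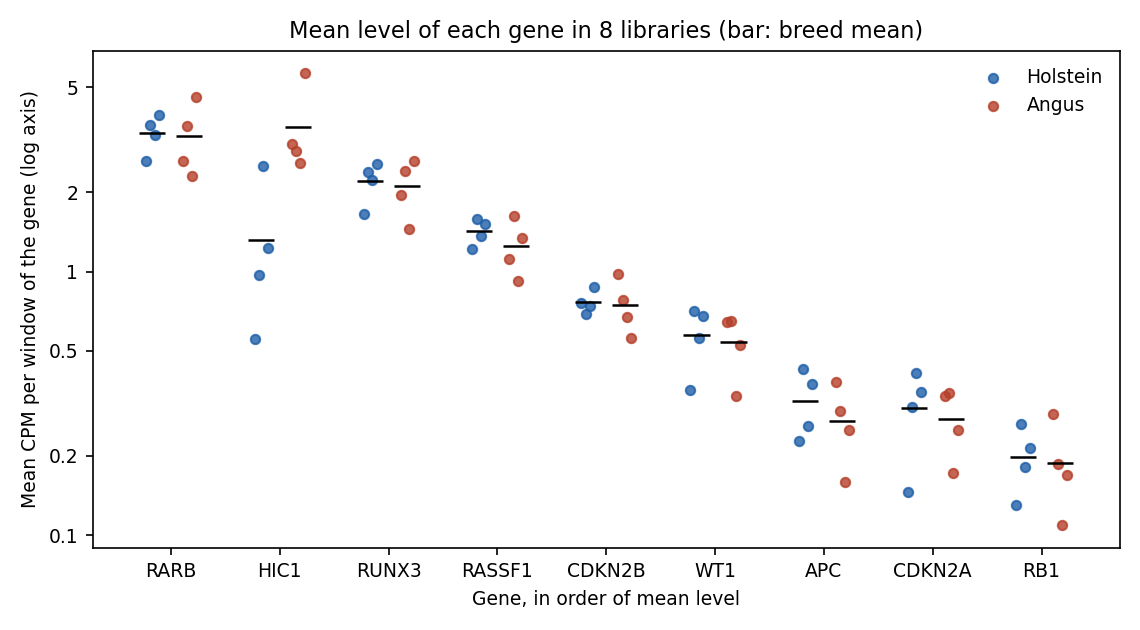
Mean CPM per window of each gene (log axis) in the 8 libraries, with genes ordered by their mean, blue points for the 4 Holstein and red for the 4 Angus libraries, and a bar at each breed mean. HIC1, which was chosen on this contrast, is the gene whose breeds do not overlap, and levels run from 3.31 CPM in RARB to 0.193 CPM in RB1.

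No breed difference was called in the other 8 genes. Of their 125 windows, 25 passed the filter on low counts, namely 1 of CDKN2B, 1 of RASSF1, 9 of RARB, 10 of RUNX3 and 4 of WT1, and no window of CDKN2A, APC or RB1 did. None of the 25 was called in edgeR's likelihood-ratio test, against 0.231% of all windows, and 1 had an unadjusted p under 0.05, as 4.94% of all windows tested did. The quasi-likelihood test and DESeq2 also called 0. Their log2 fold changes of Holstein over Angus lay between -0.50 and 0.33 with standard errors of 0.155 to 0.247. Their median was -0.03, beside -0.0021 over all windows tested.

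The window with the unadjusted p under 0.05 was the first of RUNX3 (chromosome 2, 128629334 to 128632333, coding exon 1). It gave 1.67, 1.95, 2.57 and 2.45 CPM in Holstein 1 to 4, and 2.65, 2.92, 2.08 and 3.64 CPM in Angus 1 to 4. In these values the breeds overlapped, since Angus 3 lay below Holstein 3 and Holstein 4. With TMM scaling, as in the fit, they did not, at 1.74 to 2.36 CPM in Holstein and 2.67 to 3.11 CPM in Angus. On that scale 1.25% of the windows tested had all Angus cultures above, and of the 25 windows this was the only one with breeds apart. The log2 fold change was -0.50 (SE 0.16), and edgeR's adjusted p over all windows was 0.263, so it did not pass.

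With reads summed over each gene, edgeR called 23 of 23397 genes, or 0.0983% (0.0684% higher in Angus and 0.0299% higher in Holstein), and 0 of the 8 genes, none of which had an unadjusted p under 0.05. Over all genes 2.44% did. The quasi-likelihood test called 0 of the 23397 genes and DESeq2 8, none of them among the 8 genes. Log2 fold changes of Holstein over Angus ran from -0.15 (SE 0.23) for CDKN2B to 0.11 (SE 0.16) for APC, with an adjusted p of 1.00 in edgeR for each. The 95% intervals bound the difference that could have gone unseen in the summed reads of a gene, but not one in a single window. For WT1 the interval was -0.30 to 0.19 and for RUNX3 -0.35 to 0.18. The widest was that of CDKN2B, from -0.60 to 0.31. None of the intervals reached a fold change of 2, which is 1 on the log2 scale. In CPM without TMM scaling, HIC1 was the only one of the 9 genes whose mean per window did not overlap between breeds. On that scale this held for 0.111% of genes with Angus above and 0.423% with Holstein above. Shares of genes with TMM scaling were not taken. Since HIC1 was chosen on this contrast, its separation repeats that choice and nothing is read from these shares. The level of HIC1 was 1.32 ± 0.845 CPM over the Holstein cultures and 3.53 ± 1.42 CPM over the Angus ones (SD, n = 4 each).

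Below the filter, 2 windows of APC had all Holstein cultures above all Angus cultures. Windows with Holstein above in this way made up 1.11% of the windows tested and 1.01% of the 887821 windows with at least 1 read. In APC window 3 (chromosome 10, 1204001 to 1207000) Holstein gave 0.405 to 0.535 CPM and Angus 0.0672 to 0.278 CPM. In APC window 12 (1177001 to 1180000) Holstein gave 0.476 to 0.681 CPM and Angus 0.235 to 0.428 CPM. With TMM scaling the breeds stayed apart in window 3 but overlapped in window 12, where Holstein 2 was at 0.425 CPM and Angus 1 at 0.440 CPM. On that scale 0.856% of the windows with at least 1 read had Holstein above. Neither window holds coding exon. Both were fitted when no filter was applied, and edgeR then called 0 of the 125 windows, of which 5 had an unadjusted p under 0.05, beside 905 called and 4.55% under 0.05 of all windows so fitted.

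**Figure D3:**
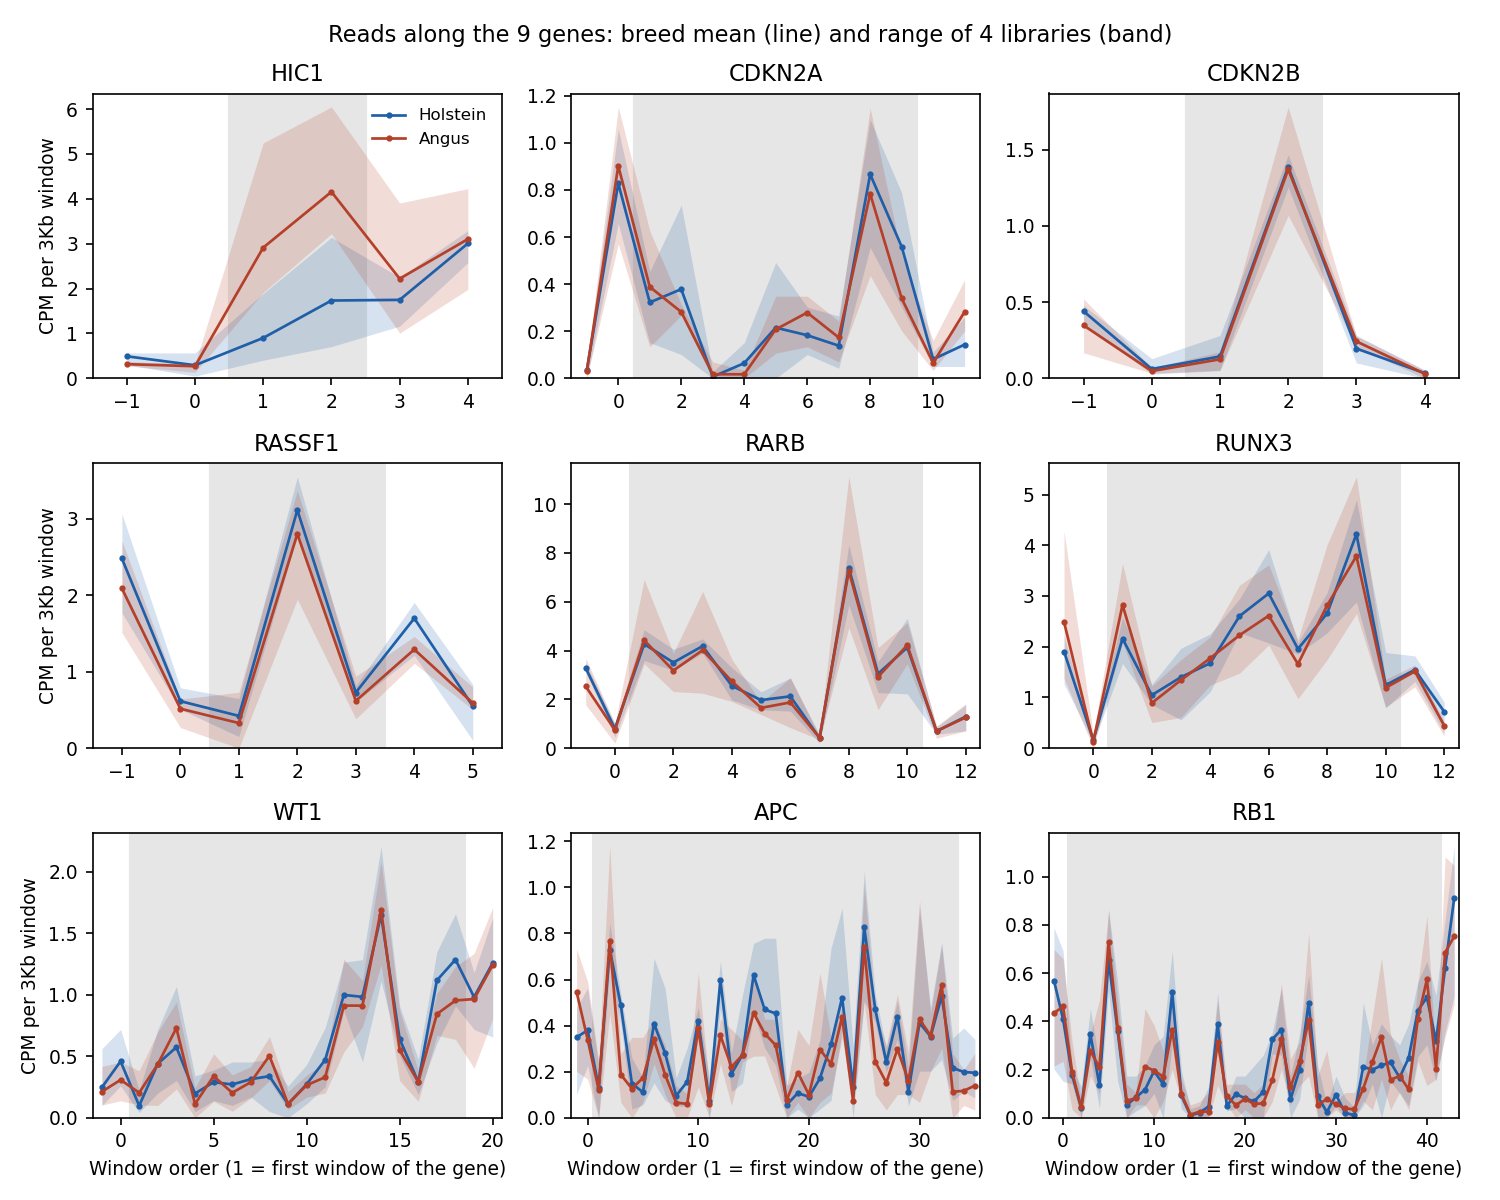
CPM per 3Kb window (y axis, its own scale in each panel) along the 9 genes and 2 windows on each side, by window order from the start of the gene, with the gene shaded, lines for the breed means and bands for the range of the 4 libraries of a breed. In CPM without TMM scaling, bands overlap through RARB, RUNX3, RASSF1, CDKN2B and WT1. They separate in both HIC1 windows, with Angus above, and in APC windows 3 and 12, with Holstein above. Peaks stand in 1 window of RASSF1, CDKN2B, RARB and WT1.

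Along the genes, reads fell in peaks rather than evenly. In RASSF1 on chromosome 22, window 1 (50579667 to 50582666, coding exon 1) gave 0 to 0.730 CPM and window 2 (50582667 to 50585666, coding exon 2) gave 1.95 to 3.55 CPM, so the windows did not overlap in any library. The windows beside RASSF1 belong to ZMYND10, a neighbour that is also a candidate tumour suppressor, on one side and to LOC100848754 and HYAL2 on the other. The nearer ZMYND10 window gave 0.269 to 0.788 CPM and the farther one 1.51 to 3.07 CPM. In CDKN2B on chromosome 8, window 1 (22113787 to 22116786, coding exon 1) gave 0.0506 to 0.281 CPM and window 2 (22116787 to 22119786, coding exon 2) gave 1.07 to 1.78 CPM.

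CDKN2A lies next to CDKN2B, and its highest window (22149787 to 22152786, coding exon 1) gave 0.437 to 1.15 CPM, while its windows 3 and 4 gave at most 0.151 CPM and 0 reads in several libraries. RARB window 8 on chromosome 27 (40135467 to 40138466, no coding exon) was the highest of all member windows, at 4.94 to 11.1 CPM, above 99.4% of all windows of the genome. RUNX3 peaked at window 9 (128653334 to 128656333, coding exon 4) with 2.65 to 5.35 CPM. WT1 peaked at window 14 of 18 on chromosome 15 (63923257 to 63926256, coding exon 9) with 1.11 to 2.21 CPM. In APC and RB1 the highest windows averaged 0.783 and 0.692 CPM. Of the 127 windows, 32 had at least 1 library at 0 reads, 17 of them in RB1 and 9 in APC.

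The windows that hold coding exon were set beside the other windows of the same gene, as a description. They were higher in all 8 libraries in WT1, with a mean of 0.765 against 0.391 CPM, in RUNX3 (2.74 against 1.77 CPM), in RARB (3.90 against 2.92 CPM) and in CDKN2A (0.637 against 0.191 CPM). In APC and RB1 they were higher in 1 of 8 libraries, with means of 0.257 against 0.323 CPM and 0.176 against 0.205 CPM. In WT1 the last 9 windows had 1.95 to 4.29 times the level of the first 9 over the 8 libraries. In RB1 the same ratio of the last 20 windows to the first 20 lay between 0.857 and 1.28.

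The first window of each gene, by its strand, was next compared with the rest of the gene within each library, on log2(CPM + 0.5), since CpG islands usually lie at gene starts. Of 15127 genes with at least 3 windows and a mean of at least 0.2 CPM, 2086 (13.8%) had a first window lower by at least 1 at FDR below 0.1 in limma, and 710 (4.69%) had a higher one. Of the 6 members tested, 1 was lower and 0 higher. RASSF1 fell 1.24 below its other windows (SE 0.10, limma adjusted p = 4.3e-14, lower in 8 of 8 libraries, n = 8). The gene has only 3 windows, with means of 0.375, 2.96 and 0.672 CPM, so the difference rests mostly on window 2. Window 3 gave 0.384 to 0.939 CPM and overlapped window 1 in its range over libraries. Angus 4 had 0 reads in this window. With a pseudocount of 1 CPM the difference was -0.92, short of the minimum of 1, and with 0.1 CPM it was -1.90.

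WT1 was lower by a log2 difference of -0.63 and APC by -0.32, in 8 of 8 libraries each, with limma adjusted p of 8.1e-09 and 7.7e-05, but short of that minimum. RARB was higher by 0.59 in 8 of 8 libraries and RUNX3 by 0.28 in 7 of 8, which also stayed short of it. CDKN2A differed by 0.19. The first window of APC held at most 7 reads, and 0 in Holstein 1 and Angus 4. With a pseudocount of 0.1 CPM it was lower in 6 of 8 libraries, and against the median of the other windows in 7 of 8. HIC1 and CDKN2B have only 2 windows and RB1 fell below the level minimum, so they were not tested. The first named window does not always hold the start of the coding sequence: it holds coding exon 2 in RARB and coding exon 3 in WT1, and coding exon 1 lies in window 8 of both APC and CDKN2A.

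**Figure D4:**
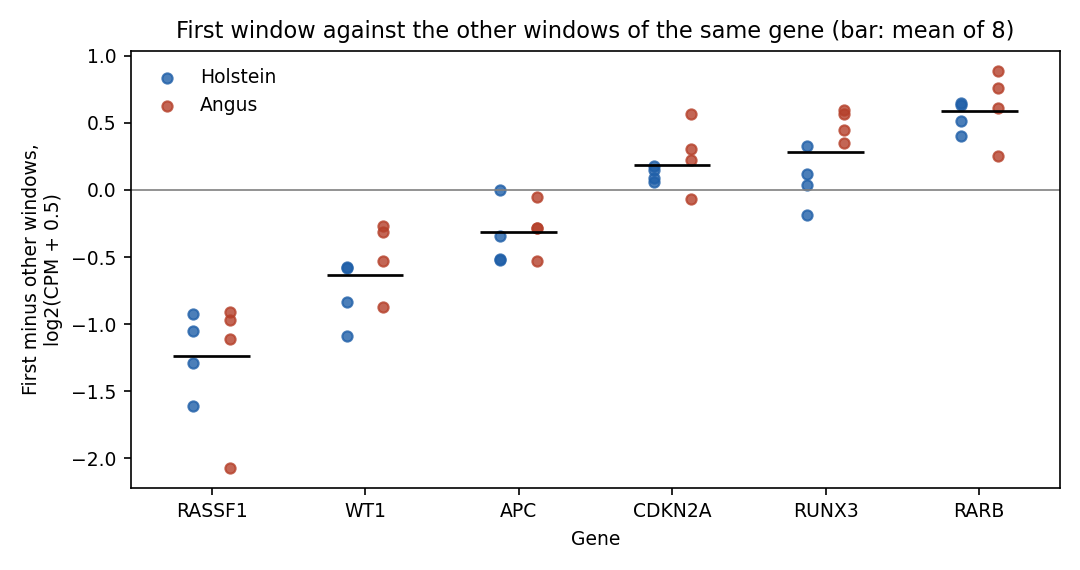
First window minus the mean of the other windows, on log2(CPM + 0.5), for the 6 genes tested, with blue points for the 4 Holstein and red for the 4 Angus libraries and a bar at the mean of all 8. RASSF1 lies below 0 in all libraries with a mean of -1.24, and RARB lies above 0 in all with a mean of 0.59.

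First windows themselves ranged from 4.34 ± 1.15 CPM in RARB, above 98.0% of first windows of named genes, to 0.127 ± 0.102 CPM in APC. RUNX3 gave 2.49 ± 0.618 CPM and HIC1 1.91 ± 1.55 CPM, above 94.0% and 90.8%. Those of RASSF1 (0.375 CPM) and CDKN2A (0.355 CPM) lay close to the median of 0.395 CPM. Those of RB1 (0.182 CPM), WT1 (0.151 CPM) and CDKN2B (0.135 CPM) lay lower, close to the limit of 3 reads, as did that of APC (SD over n = 8 throughout).

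Genes around the 9 were described by lists, and in none of these lists did a gene reach an unadjusted p under 0.05 between breeds, which 2.44% of all genes did. The counts of first windows below stand beside 13.8% lower and 4.69% higher over all genes tested. Among 23 other tumour suppressors known for CpG-island methylation, edgeR called 0 between breeds, with gene-level log2 fold changes of -0.40 to 0.21 and a median of 0.03, beside -0.0061 over all genes. The first window was lower in 1 of 17 tested (STK11, a kinase upstream of AMPK, by a log2 difference of -1.40) and higher in 1 (MGMT, a DNA repair methyltransferase, by 1.17). Among 12 genes of the RB pathway and cell cycle tested, 0 were called between breeds. Their first window was lower in 4 of 9, namely CCND1 and CCND2, which encode D cyclins, the kinase inhibitor gene CDKN1A and the transcription factor gene E2F1, with log2 differences from -1.72 (CCND2) to -1.19 (CDKN1A).

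Among 11 relatives in the same gene families, 0 were called between breeds, and the first window was lower in 2 of 10, RARA (-1.67) and RASSF5 (-1.15). HIC2, the relative of HIC1, had a first window of 7.13 CPM and a gene-level log2 fold change of -0.11 (SE 0.18). Of 6 partners and targets of HIC1, 0 were called between breeds. SIRT1, the deacetylase gene that HIC1 represses, had a first window higher by 1.16 and a breed log2 fold change of 0.11 (SE 0.17). CXCR7 and EPHA2 had lower ones, by log2 differences of -2.03 and -2.20.

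Markers of cell types were examined only for reads at their first windows. The 7 fibroblast markers had a median of 0.221 CPM (range 0.0528 to 0.341 CPM) and the 4 keratinocyte markers 1.16 CPM (0.105 to 1.99 CPM). The 4 endothelial markers had 0.544 CPM (0.325 to 2.89 CPM) and the 3 leukocyte markers 0.745 CPM (0.301 to 0.790 CPM). The lowest marker of each of these other lists lay within the fibroblast range. In edgeR's gene-level test 0 of these markers were called between breeds. The per-library medians of the fibroblast markers were 0.152 to 0.366 CPM in Holstein and 0.107 to 0.313 CPM in Angus. The part of cell composition in the HIC1 values was not tested.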

How the data were processed

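MIRA-Seq counts of 8 untreated fibroblast cultures (4 per breed) were used. After quality filtering, the authors mapped reads to UMD v3.1 and counted them in 3Kb windows. CASAVA 1.7 and NextGENe 2.3.4 are named in the submitters' processing notes. The deposited values are raw counts, with the coverage signal that the authors give as the highest and mean depth of each window. How duplicates and multiply mapping reads were treated is not given in the sources used here, and no input library was used, so CpG density and copy number were not separated from methylation.

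Windows with at least 1 CPM in at least 4 libraries were tested with edgeR 4.0.16 (TMM, likelihood-ratio test, Benjamini-Hochberg adjustment over all windows) in R 4.3.3, called at FDR below 0.1 and a fold change of at least 2. Reads summed per gene were tested likewise, and first windows were compared with limma 3.58.1 over all genes. Python 3.11.15 (numpy 2.4.6, pandas 2.3.3) gave the descriptions. Alternatives included DESeq2 1.42.0, the quasi-likelihood test, other scalings, filters and pseudocounts, a replicate block and leaving out each library. The fits were tested on simulated data. No 2 libraries of a breed agreed within sampling noise (chi-square per window of at least 2.65).

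The genes named were all 9 members (each by its first and highest window and any window called), the 3 first windows most like HIC1, and fixed lists of which those called for the first window are named; HIC2 and the APC windows that did not overlap were named after their values were seen. Members and lists were chosen with earlier results of these data known. DAPK1, ESR1 and CDKN2D were not matched by name. A gene of the lists is not reported here.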

Additional observations from a re-analysis of the deposited data

Results flagged for a closer look

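In 3 of 54 groups of 4 libraries, 1 library stood apart by Dixon's test, where chance flags about 1 in 20 groups. All 3 were Angus 4: the mean level of HIC1 per window (5.64 CPM), the first window of HIC1 (5.24 CPM) and the first window of RARB (6.90 CPM, against 3.46 to 3.67 CPM in the other Angus libraries). The groups share libraries and, for HIC1, windows, so the flags are not independent. The 3 flagged levels are CPM without TMM scaling. With TMM scaling, HIC1 window 1 was at 2.46, 1.97, 2.83 and 4.48 CPM in Angus 1 to 4. Dixon's test was not run on that scale, so the flags hold only for CPM without TMM scaling.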

How the results depend on the processing

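HIC1 was chosen on this contrast, so calls of it would only restate that choice and are no sign of stability. Breed calls are therefore counted here for the other 8 genes. The overlap of breeds with TMM scaling was added after seeing the data. Of the 25 windows of the other 8 genes tested, 0 were called in the main test, and 0 of their windows without each library in turn. DESeq2 called 0 of all 27 member windows tested, HIC1 included. When all 8 libraries needed 1 CPM, 17 member windows were tested, none of them in HIC1, and 0 were called. At the gene level, 0 of the other 8 were called in the main test or without any library. The quasi-likelihood test and DESeq2 each called 0 of all 9 genes, HIC1 included. For first windows, 1 member was lower (1 to 1 without each library), 2 with a pseudocount of 0.1 CPM, where WT1 reached -1.23, and 0 with 1 CPM, where RASSF1 was at -0.92. The log2 difference of HIC1 window 1 ran from -2.24 without Holstein 3 to -1.64 without Angus 4. Without Holstein 1 and Angus 3, chosen after seeing the data, it was -1.70. With total counts only it was -1.72 and the median of all windows shifted to 0.14.

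Over all windows, 267 were called in the main test, 141 with the quasi-likelihood test, 142 with DESeq2, 905 with no filter, 163 with all 8 libraries at 1 CPM, 145 to 564 without each library, 531 without Holstein 1 and Angus 3, and 154 on placed chromosomes only. Over all genes, 23 became 0, 8 and 35 with the quasi-likelihood test, DESeq2 and no filter, and 13 to 40 without each library.

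With the animal number as a replicate block, 0 windows and 0 genes of the other 8 were called, and HIC1 window 1 was at -1.85. Samples with the same number did not deviate together (mean correlation -0.0199, range -0.216 to 0.109, beside 0.0102 for different numbers). No pairing by number was therefore seen, though so few samples cannot exclude one. At this depth no window of CDKN2A, APC or RB1 passed the filter, so their breed differences were bounded at the gene level only. P-values of breed differences rest on the spread between animals within breeds, and those of first windows on the spread over all 8 animals together. In both fits the variances were partly shared across windows or genes.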
